A study of Mus musculus with 12 samples.

Results

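Macrophage and microglia marker genes were followed across 12 rhabdoid tumors of the mouse. The genes were chosen by name, for their use as markers, as a list of 10 symbols covering pan-macrophage (Cd68, Csf1r, Adgre1 with its older symbol Emr1, Aif1), tissue macrophage (Mrc1, Cd163) and microglia markers (P2ry12, Tmem119), and Trem2, a receptor of both macrophages and microglia. Adgre1 is listed in the files as Emr1, so the list covers 9 genes of the 24060 gene rows. The rule used no measured value, but the list was drawn up with earlier results of these data known. All 12 tumors arose in P0-CreC;Smarcb1 flox/flox mice, in which the P0 promoter drives Cre recombinase in the neural crest and the Schwann cell lineage from early development and removes both floxed copies of Smarcb1, a subunit gene of the SWI/SNF chromatin remodeling complex. The mouse lines were kept on the FVB/N background, and the labels give no age or sex and no treatment. The tumors differ by their labelled location, which was Retro-orbital in 4, Cheek in 3, Meninges in 3, Vestibular N in 1 and Trigeminal N in 1. No normal tissue or other genotype was analysed here, so each comparison is between tumors, and whether the tumors came from separate animals is not stated.

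Macrophages are phagocytes that depend on signaling through the Csf1r receptor for survival, and every organ holds its own resident population. Microglia are the resident macrophages of the brain parenchyma, whereas the meninges, the nerves and the soft tissues of the orbit and face hold other resident macrophages, many with high levels of the scavenger receptors Mrc1 and Cd163. Monocytes from the blood enter tumors and become macrophages there. In RNA of whole tumors, fewer cells of a type and less RNA per cell cannot be told apart.

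The 9 genes were well covered. All 12 tumors had at least 1 RPKM, the number of reads scaled to the length of the transcript and to the mapped reads of the library, of 8 of the 9 genes, and 8 tumors reached it for Cd163. The total of fragments per tumor, worked out from the smallest steps in the RPKM values, ranged from 13206168 to 57128422. The thinnest value of any member, Cd163 in Meninges tumor 3, rested on 55 fragments and had an exact 95% Poisson interval of 0.518 to 0.895 RPKM, which covers counting error only. The general leukocyte gene Ptprc (CD45) was present in every tumor at 6.93 to 51.5 RPKM with a median of 18.1.

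Promoter sequence was read for the members whose levels followed each other most closely, Mrc1 and Cd163, and for a pan-macrophage and a microglia gene beside them. Each run holds 250 bases before and 50 bases after the RefSeq transcript start in GRCm38.p6, the build of mm10, written from 5′ to 3′ on the gene's strand. Capitals mark GAGGAA, a core of PU.1 sites, on either strand, and TGANTCA, a pattern used for AP-1 sites. N is any base, so that TGANTCA reads the same on both strands. PU.1 is the factor without which macrophages do not form.
Mrc1, chr2:14229164-14229463, plus strand: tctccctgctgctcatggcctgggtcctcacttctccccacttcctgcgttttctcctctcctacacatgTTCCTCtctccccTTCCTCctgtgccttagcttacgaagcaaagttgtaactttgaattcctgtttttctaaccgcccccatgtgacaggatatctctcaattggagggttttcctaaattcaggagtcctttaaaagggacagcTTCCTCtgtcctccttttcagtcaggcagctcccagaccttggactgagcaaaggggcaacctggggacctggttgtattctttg
Cd163, chr6:124304401-124304700, plus strand: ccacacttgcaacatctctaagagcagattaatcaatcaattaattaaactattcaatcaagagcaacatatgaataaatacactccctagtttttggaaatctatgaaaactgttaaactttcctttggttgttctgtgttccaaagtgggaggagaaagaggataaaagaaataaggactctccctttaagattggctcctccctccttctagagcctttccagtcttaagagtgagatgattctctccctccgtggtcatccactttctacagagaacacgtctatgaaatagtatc
Cd68, chr11:69666121-69666420, minus strand: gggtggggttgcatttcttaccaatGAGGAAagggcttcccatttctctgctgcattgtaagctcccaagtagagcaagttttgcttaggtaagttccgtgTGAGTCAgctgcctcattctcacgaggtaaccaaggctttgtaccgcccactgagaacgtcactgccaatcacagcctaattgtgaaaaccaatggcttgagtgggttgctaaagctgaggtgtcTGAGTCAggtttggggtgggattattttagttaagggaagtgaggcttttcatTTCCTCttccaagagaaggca
P2ry12, chr3:59262936-59263235, minus strand: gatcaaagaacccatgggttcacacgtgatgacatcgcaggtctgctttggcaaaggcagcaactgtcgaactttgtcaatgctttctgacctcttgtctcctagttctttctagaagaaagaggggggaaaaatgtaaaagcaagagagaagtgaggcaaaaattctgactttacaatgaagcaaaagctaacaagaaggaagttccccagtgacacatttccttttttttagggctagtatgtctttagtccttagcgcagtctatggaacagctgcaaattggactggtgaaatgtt

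Mrc1 had 3 matches to the PU.1 core and Cd68 had 2, while Cd163 and P2ry12 had none in this window. Of the 6 members with a promoter sequence, 4 (Cd68, Mrc1, Aif1 and Trem2) held the PU.1 core, against 28.3% of all mouse promoters of this length. The AP-1 pattern was found in Cd68, as TGAGTCA, and in Trem2, as TGAATCA, against 7.81% of all promoters. The MAF core TGCTGAC, searched on both strands, was found in none of the 6, against 4.67%. The promoters of Mrc1 and Cd163 thus shared none of the 3 motifs searched.

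The pan-macrophage genes were high in every tumor and spread over a 5.36- to 5.96-fold range. Cd68, a lysosomal glycoprotein of phagocytes, measured 62.5, 244, 77.2 and 137 RPKM in Retro-orbital tumors 1 to 4 and 59.7, 70.8 and 82.6 in the Cheek tumors. It measured 70.1, 58.2 and 85.6 RPKM in the Meninges tumors, 45.4 in the Vestibular N tumor and 84.9 in the Trigeminal N tumor. Retro-orbital tumors 2 and 4 stood above the other 10 tumors, and those lay within a narrow band across all locations.

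Csf1r, the receptor for the growth factors Csf1 and Il34, measured 53.0, 146, 50.9 and 134 RPKM in the Retro-orbital tumors and 31.5, 45.7 and 47.8 in the Cheek tumors. Its levels were 50.0, 118 and 60.9 RPKM in the Meninges tumors, 26.4 in the Vestibular N tumor and 70.6 in the Trigeminal N tumor. The same retro-orbital tumors were again highest, now joined by Meninges tumor 2. The lowest Retro-orbital value, 50.9 RPKM, and the lowest Meninges value, 50.0, lay narrowly above the highest Cheek value, 47.8. Meninges tumors lay above Cheek tumors without overlap for 19.2% of the 14745 genes, and the share for Retro-orbital above Cheek tumors was not counted. The Retro-orbital and Meninges values overlapped each other.

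Emr1, the gene of the F4/80 surface antigen, ranged from 10.2 RPKM in Retro-orbital tumor 3 through a median of 18.7 to 54.7 in Meninges tumor 2. Aif1, which encodes the actin-binding protein Iba1, ranged from 8.96 RPKM in Retro-orbital tumor 3 through a median of 19.2 to 53.4 in Meninges tumor 2. Both genes were second highest in Retro-orbital tumor 4, at 50.7 and 48.9 RPKM. Retro-orbital tumor 2, at the top for Cd68 and Csf1r, had 36.0 RPKM of Emr1 and only 17.3 of Aif1, below the median of that gene.

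**Figure D1:**
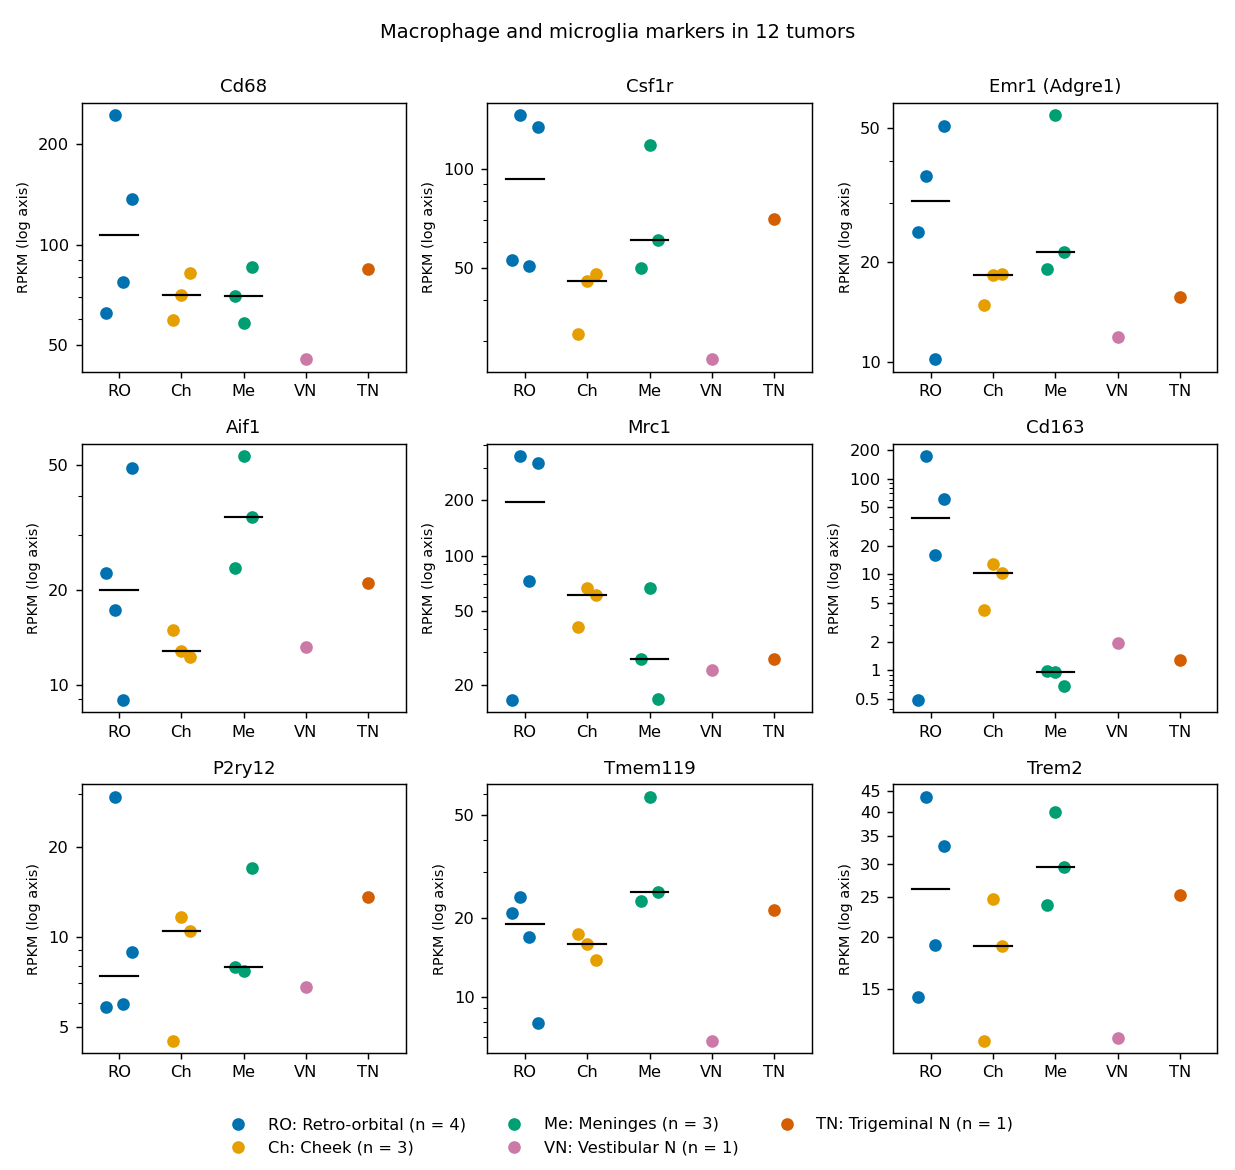
RPKM of each marker gene (log axis) in the 12 tumors by labelled location, each point a tumor and each black line the median of a location with 3 or more tumors. Cd163 lay at or below 1.93 RPKM in the Meninges, Vestibular N and Trigeminal N tumors and at or above 4.22 in all Retro-orbital and Cheek tumors but Retro-orbital tumor 1, at 0.493.

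The tissue macrophage genes varied far more than the pan-macrophage genes. Cd163, the scavenger receptor for hemoglobin bound to haptoglobin, measured 0.493, 172, 16.1 and 61.4 RPKM in Retro-orbital tumors 1 to 4 and 4.22, 12.98 and 10.3 in the Cheek tumors. It measured 0.987, 0.965 and 0.688 RPKM in the Meninges tumors, 1.93 in the Vestibular N tumor and 1.29 in the Trigeminal N tumor. All 5 of these last tumors lay below all 3 Cheek tumors and below 3 of the 4 Retro-orbital tumors, and Retro-orbital tumor 1 lay below them all. From lowest to highest the gene ranged 349-fold, and its standard deviation over the 12 tumors, 2.23 on the log2(RPKM + 1) scale, was larger than that of 99.3% of the 15040 genes compared, whose median was 0.48.

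Mrc1, the mannose receptor CD206, measured 16.5, 348, 73.0 and 318 RPKM in the Retro-orbital tumors and 41.2, 67.2 and 61.2 in the Cheek tumors. Its levels were 27.6, 66.8 and 16.8 RPKM in the Meninges tumors, 24.1 in the Vestibular N tumor and 27.6 in the Trigeminal N tumor. Mrc1 therefore had the same extremes as Cd163, Retro-orbital tumor 1 at the bottom and Retro-orbital tumor 2 at the top, but the groups overlapped through Meninges tumor 2, which reached the level of the Cheek tumors. Its standard deviation of 1.43 was larger than that of 95.2% of genes.

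The microglia genes were detected in all tumors, also in those from the orbit and the cheek. P2ry12, the ADP receptor of microglia that is also known from platelets, ranged from 4.50 RPKM in Cheek tumor 1 through a median of 8.40 to 29.4 in Retro-orbital tumor 2. In the Meninges tumors it measured 7.91, 7.66 and 16.9 RPKM, within the range of 4.50 to 29.4 of the Retro-orbital and Cheek tumors. The highest P2ry12 level was thus in the tumor with the highest Mrc1 and Cd163, and not in a tumor labelled Meninges.

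Tmem119, a membrane protein used to mark microglia in the brain and also known from bone-forming cells, measured 20.9, 24.0, 17.0 and 7.93 RPKM in the Retro-orbital tumors and 17.4, 15.9 and 13.8 in the Cheek tumors. It measured 23.4, 58.7 and 25.2 RPKM in the Meninges tumors, 6.78 in the Vestibular N tumor and 21.6 in the Trigeminal N tumor. The Meninges tumors lay above the Cheek tumors, with the Vestibular N tumor below all others. P2ry12 and Tmem119 did not follow each other, with Pearson's r of 0.18 and Spearman's rho of 0.29 over the 12 tumors, and Meninges tumor 2, highest for Tmem119, was below the median for P2ry12.

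Trem2, a lipid receptor that signals through the adaptor Tyrobp, varied least, over a 3.86-fold range. It measured 14.4, 43.6, 19.2 and 33.2 RPKM in the Retro-orbital tumors, 11.3, 24.7 and 19.0 in the Cheek tumors and 23.9, 40.0 and 29.5 in the Meninges tumors. The Vestibular N tumor had 11.4 RPKM and the Trigeminal N tumor 25.3. The locations overlapped, and the same 3 tumors were highest as for Csf1r.

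Across the 9 genes, some tumors recurred at the top or the bottom, but the genes did not share 1 order of the tumors. Retro-orbital tumor 2 was the highest of the 12 for 6 genes and Meninges tumor 2 for the other 3, namely Emr1, Tmem119 and Aif1. Meninges tumor 2 ranked only 11 for Cd68 and 10 for Cd163. Retro-orbital tumor 3 ranked 3 for Mrc1 and Cd163 but 12 for Emr1 and Aif1. Retro-orbital tumor 4 was among the top 3 for 7 genes, and the Vestibular N tumor was among the bottom 3 for 6. The Retro-orbital group held both the lowest and the highest value for Mrc1 and Cd163, so the spread within that location covered the whole range of the series.

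Whether the levels differed between the locations with replicates was tested with limma over the 4 Retro-orbital, 3 Cheek and 3 Meninges tumors. None of the 9 members passed a Benjamini-Hochberg adjusted p of 0.05, where 0.0407% of the 14745 genes tested did (6 genes; 2110 had an unadjusted p under 0.05). The smallest adjusted p-values of limma among the members were 0.36 for Cd163, 0.37 for Tmem119 and 0.38 for Aif1. The location means of Cd163 were 62.5 ± 77.5 RPKM (SD, n = 4) in Retro-orbital, 9.18 ± 4.49 (SD, n = 3) in Cheek and 0.880 ± 0.167 (SD, n = 3) in Meninges tumors. Those of Tmem119 were 17.5 ± 6.98, 15.7 ± 1.82 and 35.8 ± 19.9 RPKM in the same order and n. Trem2 alone passed when the first part of the tumors' identifiers, shared by 3 pairs of tumors in the series and by 2 in this test, was fitted as a random block, at a limma adjusted p of 0.0216 against 0.52 without it. That block moved the count over all genes from 6 to 2802, and what the shared part stands for is not stated.

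In ranges, 4 of the 9 members (Csf1r, Emr1, Tmem119 and Aif1) were higher in every Meninges tumor than in any Cheek tumor, as were 19.2% of the 14745 genes. Cd163 was lower in every Meninges tumor than in any Cheek tumor, as were 9.54% of genes. For Csf1r the bounds were 50.0 and 47.8 RPKM and for Emr1 19.0 and 18.4, so these separations were narrow. For Aif1 the Meninges tumors started at 23.6 RPKM where the Cheek tumors ended at 14.96, and for Tmem119 at 23.4 against 17.4. By mean RPKM of a location, Retro-orbital was highest for Cd68, Csf1r, Mrc1 and Cd163 and Meninges for Emr1, Tmem119, Aif1 and Trem2. For P2ry12 the highest mean RPKM was in Retro-orbital tumors, through tumor 2 at 29.4, while on the log2(RPKM + 1) scale the means were 3.45 in Retro-orbital and 3.48 in Meninges tumors. Retro-orbital and Meninges values overlapped for all 9 members, and the separations in range carry no test beyond the limma fit above.

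The second comparison set the 5 tumors labelled Meninges, Vestibular N or Trigeminal N against the 7 labelled Retro-orbital or Cheek. No member passed the limma test in either direction, where 0.193% of the 15043 genes did (20 higher and 9 lower in the 5 tumors). The median difference of the 9 members was -0.04 on the log2(RPKM + 1) scale, beside 0.13 over all genes. Cd163 had the largest difference, -2.87 ± 0.92 (SE), with a 95% interval from -4.85 to -0.89, an unadjusted p of 0.0080 and a limma adjusted p of 0.21. Its mean was 1.17 ± 0.474 RPKM (SD, n = 5) in the 5 tumors and 39.7 ± 61.8 (SD, n = 7) in the 7.

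For Mrc1 the difference was -1.45 ± 0.67 (SE), with an interval from -2.90 to -0.0031 and a limma adjusted p of 0.34. The other 7 members differed by -0.45 for Cd68 to 0.59 for Aif1, all with intervals that included 0. For Csf1r the difference was -0.09, with an interval from -1.02 to 0.83, and for P2ry12 it was 0.10, from -0.73 to 0.94. Differences of either sign within those bounds thus remained compatible with the values of these tumors. Without Retro-orbital tumor 1 the Cd163 difference was -3.44 and without Retro-orbital tumor 2 it was -2.29, at limma adjusted p-values of 0.14 and 0.30.

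**Figure D2:**
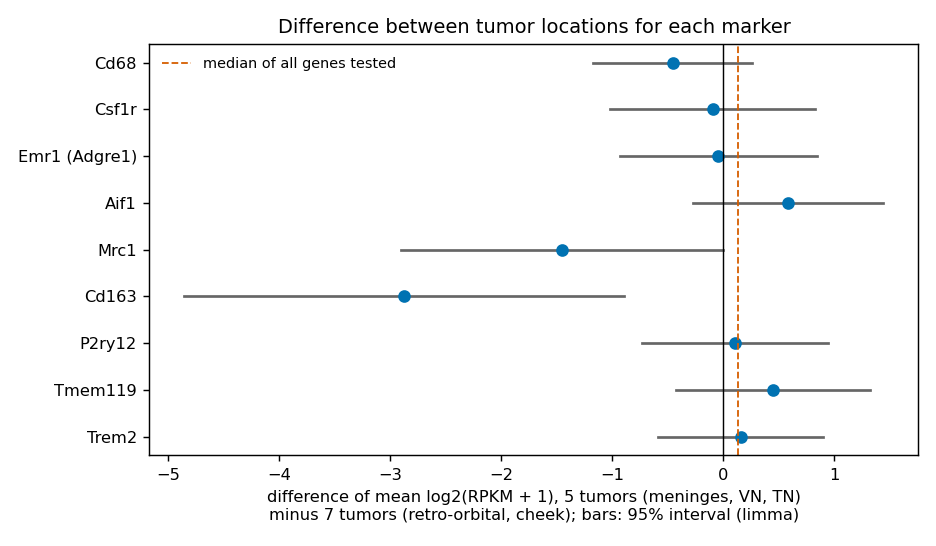
Difference in mean log2(RPKM + 1) between the 5 Meninges, Vestibular N and Trigeminal N tumors and the 7 Retro-orbital and Cheek tumors for each marker, with its 95% interval from limma. Cd163, at -2.87, and Mrc1, at -1.45, lie to the left of 0 and of the median of all genes, 0.13, and the intervals of the other 7 genes include 0.

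Genes of other tissues were measured in the same tumors. Oligodendrocyte genes (0 of 5 passed the limma test) summed to 17.3 to 49.3 RPKM in the 5 tumors against 8.42 to 36.1 in the 7, with Mag, a glycoprotein of myelin, at 1.56 to 7.06 against 0.187 to 1.46. A gap of this direction without overlap was found for 0.771% of the 15043 genes. The difference of Mag was 1.63, at a limma adjusted p of 0.066. Astrocyte genes (0 of 5 passed) summed to 127 to 496 RPKM against 56.7 to 336, with Gfap at 26.3 to 260 against 0.309 to 128. Of this list 4 genes had higher means in the 5 tumors, and Gja1 went the other way, at 31.2 to 124 against 37.2 to 220. In the Cheek tumors Gja1 alone was at 180 to 205 RPKM of sums of 181 to 224. Muscle genes (0 of 5 passed) summed to 4.80 to 171 RPKM against 4.53 to 456, osteoclast genes (0 of 6 tested) to 41.1 to 86.4 against 39.1 to 1947, and neutrophil genes (0 of 4 tested) to 5.04 to 12.0 against 8.18 to 269. Every gene of the astrocyte, oligodendrocyte and muscle lists was above 0 in at least 1 tumor, and the part of surrounding tissue in the marker levels was not tested. The top tumor for Cd163, Mrc1 and P2ry12, Retro-orbital tumor 2, also had the highest Ctsk, a collagen-degrading protease of osteoclasts, at 805 RPKM against a median of 8.45. Acp5 and Mmp9 of the osteoclast list were highest in that tumor too. Calcr of the same list was at its lowest there, at 0.317 RPKM against a median of 3.89.

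Cheek tumors 2 and 3 shared the first part of their identifiers and were the closest tumors of the series in their fragment numbers, so the 3 Cheek tumors may not be 3 independent samples. Tumors of different locations shared it as well. Cd163 was 0.987 RPKM in Meninges tumor 1 against 4.22 in Cheek tumor 1, which form a pair of this kind, and 1.29 in the Trigeminal N tumor against 16.1 in Retro-orbital tumor 3, which form another. Mrc1 was 27.6 against 41.2 RPKM and 27.6 against 73.0 in the same pairs. The other 7 members differed the opposite way in both pairs, each being higher in the Meninges or Trigeminal N tumor, by 0.14 to 1.15 on the log2(RPKM + 1) scale. With 2 pairs no test was made, and the share of all genes that were higher in both of these tumors was not counted. All values of a tumor come from the same library.

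To compare the markers at a given level of Csf1r, each was divided by Csf1r in the same tumor, after adding 0.1 RPKM to both. RPKM is scaled to length, so these ratios compare levels between genes. The Cd163 to Csf1r ratio was 0.0090, 0.0129 and 0.0217 in the Meninges tumors, 0.0197 in the Trigeminal N tumor and 0.0766 in the Vestibular N tumor. It was 0.137 to 0.285 in the Cheek tumors and 0.318, 0.458 and 1.18 in Retro-orbital tumors 3, 4 and 2, but 0.0112 in Retro-orbital tumor 1. Thus 6 of the 7 Retro-orbital and Cheek tumors lay above all 5 others, and the same 6 lay above them for the Mrc1 to Csf1r ratio, at 1.28 to 2.39 against 0.277 to 0.915, with Retro-orbital tumor 1 at 0.313.

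The remaining ratios overlapped between the groups. Trem2 stayed closest to Csf1r, with log2 ratios from -2.01 to -0.89 and a standard deviation of 0.34, followed by Emr1 at 0.43. The log2 ratio of Aif1 averaged -1.16 in the 5 tumors and -1.87 in the 7, and 4 of the 7 lay below all 5. The Tmem119 ratio was lowest in Retro-orbital tumor 4, at 0.0598, and the P2ry12 ratio in Meninges tumor 2, at 0.0655, and Retro-orbital tumor 4, at 0.0669. These ratios are descriptions and were not tested.

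**Figure D3:**
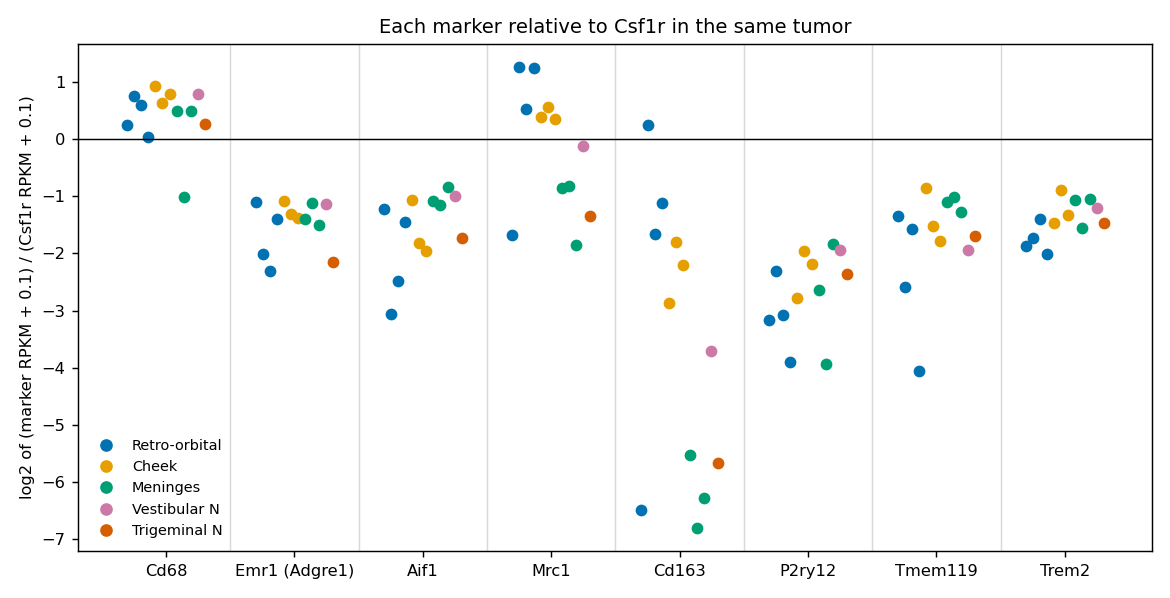
Log2 ratio of each marker to Csf1r in the same tumor, after adding 0.1 RPKM to both, with each point a tumor colored by location. The Cd163 ratios of the Meninges, Vestibular N and Trigeminal N tumors and of Retro-orbital tumor 1 lie between -6.80 and -3.71, and those of the other 6 tumors between -2.87 and 0.24.

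The 36 pairs of members had Pearson correlations from -0.32 to 0.93 over the 12 tumors on the log2(RPKM + 1) scale, with a median of 0.49. All values of a tumor come from the same library, so a tumor rich in macrophage RNA raises many pairs together. Mrc1 and Cd163 were most alike (r = 0.93, rho = 0.87), and r stayed between 0.89 and 0.98 when any tumor was left out and was 0.78 without the 2 tumors farthest from the Mrc1 median. Csf1r and Trem2 came next (r = 0.90, rho = 0.86), with r of 0.88 without the 2 tumors farthest from the Csf1r median.

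Other pairs rested on few tumors. Cd68 and Cd163 had r of 0.80, but rho was 0.48 and r was 0.22 without the 2 tumors farthest from the Cd68 median. Csf1r and Cd163 had r of 0.48 and rho of 0.10, and r was -0.31 without the 2 farthest for Csf1r. Cd163 and Tmem119 had the lowest r, -0.32, between -0.57 and -0.14 with any tumor left out. The correlations of Tmem119 with Csf1r ranged from 0.18 to 0.77 by the tumor left out, the lowest without the Vestibular N tumor.

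**Figure D4:**
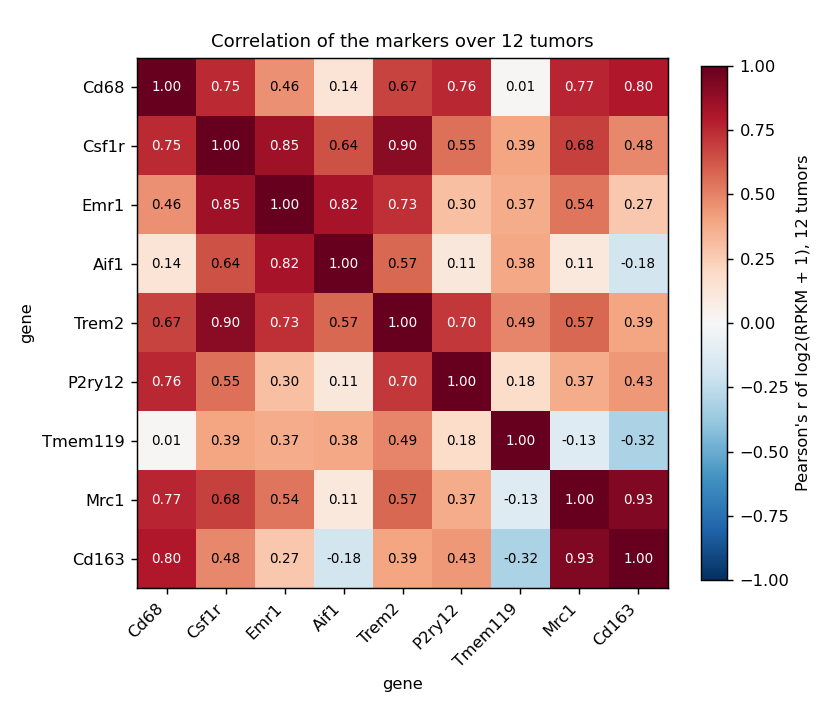
Pearson's r of log2(RPKM + 1) between each pair of markers over the 12 tumors, from -1 (blue) to 1 (red). The Mrc1 and Cd163 pair, at 0.93, and the Csf1r and Trem2 pair, at 0.90, are highest, and Cd163 with Tmem119, at -0.32, is lowest.

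Of all 15040 genes compared, those most like Csf1r over the 12 tumors were Nckap1l, Tyrobp, Fcer1g, C1qc, Fermt3, C1qb, Zeb2os, C1qa, Ncf4 and Rassf4, with Pearson's r from 0.98 down to 0.94. Nckap1l is an actin regulator of blood cells, Tyrobp and Fcer1g are signaling adaptors, and the 3 C1q genes encode complement component C1q. Tyrobp ranged from 46.4 to 245 RPKM and C1qa from 193 to 899. Zeb2os is annotated antisense to Zeb2, and whether strand was used in counting is not given in the sources used here. Among the members, Trem2 ranked 36 in likeness to Csf1r, Emr1 112, Cd68 328 and Tmem119 2115.

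The genes most like P2ry12 were A630033H20Rik, Dagla, Plcb1, Fbn1, Gpr123, Sapcd1, Dner, Traf5, Slc24a3 and Akap6, with r from 0.84 down to 0.77, and none of them is on the lists of macrophage or microglia genes. Fbn1, an extracellular matrix protein of connective tissue, ranged from 22.6 to 202 RPKM. How far the likeness to P2ry12 rests on Retro-orbital tumor 2, its highest tumor, was not tested over all genes. Without that tumor, r of P2ry12 was 0.46 with Cd68, against 0.76 with all 12 tumors, and 0.60 with Trem2, against 0.70. Cd68 ranked 21 and Trem2 58 in likeness to P2ry12, while Tmem119 ranked 2586. The order of P2ry12 over the tumors was thus closer to Cd68 than to the other microglia gene of the list.

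The wider lists placed the members among genes of the same kind. Of the 16 other pan-macrophage genes, 0 passed either limma test, and their median difference between the 5 and the 7 tumors was -0.06, beside 0.13 over all genes. Lysozyme (Lyz2) ranged from 203 to 4444 RPKM, C1qa from 193 to 899, C1qb from 120 to 472 and the protease Ctss from 157 to 1083. Of 8 other tissue macrophage genes tested, 0 passed, all 8 had lower means in the 5 tumors, and their median difference was -1.82. Among them F13a1, the A subunit of coagulation factor XIII, was at 1.26 to 6.97 RPKM in the 5 tumors and at 3.80 to 432 in the 7, at a difference of -3.21 and an adjusted p of 0.19. Cbr2, a carbonyl reductase, was at 3.72 to 26.7 against 1.99 to 1109 RPKM, its maximum being in Retro-orbital tumor 3.

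Lyve1, Pf4 and Folr2, which were picked after their values were seen, were like Cd163 highest in Retro-orbital tumor 2, Pf4 at 53.1 and Folr2 at 119 RPKM. Lyve1, a hyaluronan receptor of perivascular macrophages and lymphatic vessels, was 0.496 RPKM in Retro-orbital tumor 1, 191 in tumor 2, 2.75 in tumor 3 and 13.9 in tumor 4. It was 1.89 to 2.15 RPKM in the Cheek tumors and 0.302 to 1.34 in the other 5. Ms4a7, also on this list, was instead highest in Meninges tumor 2 at 91.0 RPKM. Clec10a and Timd4 of this list, also picked later, were highest in Retro-orbital tumor 4, at 83.5 and 2.35 RPKM. In Retro-orbital tumor 2 they were at 7.43 and 0.031.

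Of 7 other microglia genes tested, 0 passed, 6 had higher means in the 5 tumors, and the median difference was 0.38. Olfml3, a secreted matrix protein, was at 168 to 285 RPKM in the 5 tumors and 101 to 293 in the 7 (difference 0.59, limma adjusted p = 0.34). Fcrls and Selplg differed by 0.03 and 0.50.

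Sall1, a transcription factor that sets microglia apart from other macrophages, and Siglech, a lectin of microglia and plasmacytoid dendritic cells, were also picked after their values were seen. Sall1 reached 1 RPKM in 4 tumors, Retro-orbital 3 (2.11) and 4 (3.98) and Meninges 1 (1.41) and 3 (1.80), and Siglech in 3, Retro-orbital 4 (5.62), Meninges 3 (3.37) and the Trigeminal N tumor (1.83). Retro-orbital tumor 2, with the highest P2ry12, had 9 fragments of Sall1 and 0 of Siglech, and Meninges tumor 2, with the highest Tmem119, had 56 and 49. Sall1 is also active in other tissues, so its level cannot be assigned to microglia in whole tumors.

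**Figure D5:**
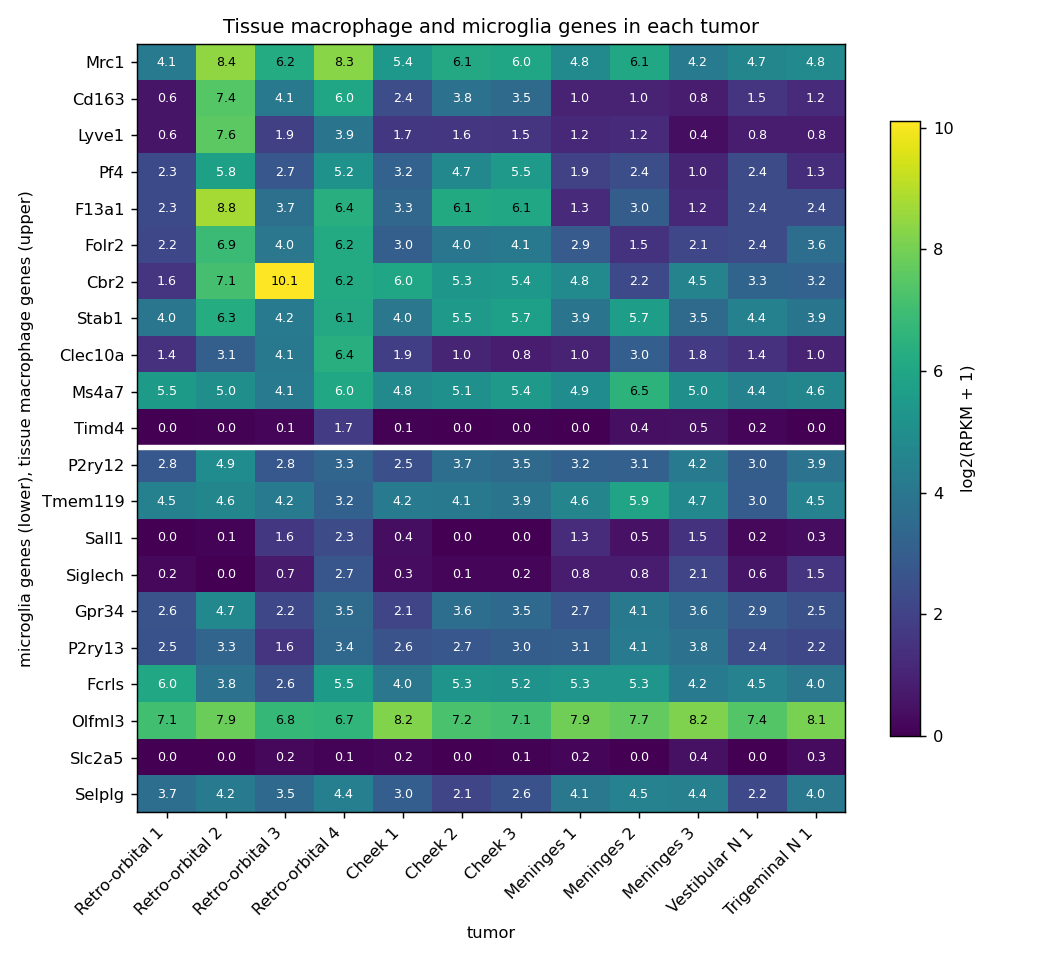
Log2(RPKM + 1) of the tissue macrophage genes (upper rows) and microglia genes (lower rows) in each of the 12 tumors, with the value printed in each cell. Retro-orbital tumors 2 and 4 are bright for most tissue macrophage genes, while Sall1 and Siglech lie below 1 RPKM in 8 and 9 of the 12 tumors.

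Of the ligands of Csf1r, Csf1 ranged from 8.67 RPKM in the Vestibular N tumor to 101 in Retro-orbital tumor 2, with a median of 23.5, and Il34 from 0.457 in Retro-orbital tumor 1 to 27.5 in Retro-orbital tumor 2, with a median of 2.41. Neither passed a limma test, and both were highest in the tumor with the highest Csf1r. Of the 10 genes linked to Trem2 signaling, 0 passed, with 5 differences on either side of 0. Apoe, a lipid carrier, was at 1208 to 5992 RPKM and Spp1 at 60.4 to 473. Cd9 and Lgals3, which many other cells also express, had differences of -2.26 and -2.40, at limma adjusted p-values of 0.12 and 0.0998, and all 5 Meninges, Vestibular N and Trigeminal N tumors lay below all 7 others for Cd9 (79.3 to 127 against 157 to 1396 RPKM), as for 0.312% of genes.

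Genes of other leukocytes varied from tumor to tumor. The monocyte gene Ccr2 ranged from 0.736 to 36.9 RPKM and Ly6c2 from 0.115 to 27.6, with Ly6c2 highest in Meninges tumor 2. The T cell gene Cd3e ranged from 0.0527 to 3.06 RPKM and the B cell gene Cd79a from 0.107 to 2.87, and the 4 mast cell genes summed to 0.130 to 66.4. Of the activation genes Arg1, an arginine-degrading enzyme of alternatively activated macrophages, ranged from 1.75 RPKM in Meninges tumor 2 to 411 in Retro-orbital tumor 2, and Il1b, an inflammatory cytokine, from 1.17 to 47.9. None of the 3 monocyte, 8 activation, 3 lymphocyte, 2 mast cell and 3 dendritic cell genes that could be tested passed in either limma test. The lists of neurons (5 tested), Schwann cell myelin (2), endothelium (3) and red blood cells (1) also had 0 genes past it. Of the red blood cell list, 3 hemoglobin genes are listed at 0 in all 12 tumors, while Alas2 was at 2.34 to 11.5 RPKM. The reason for these zeros was not tested.

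By position in GRCm38 with GENCODE M21, all 9 genes are protein coding. Cd68 lies at chr11:69664213-69666153 on the minus strand, Mrc1 at chr2:14229392-14332057 on the plus strand and Cd163 at chr6:124304656-124330527 on the plus strand. P2ry12 lies at chr3:59216272-59262871 and Tmem119 at chr5:113793729-113800516, both on the minus strand. Aif1 (chr17:35170991-35176068, minus), Trem2 (chr17:48346401-48354147, plus) and Emr1, annotated there as Adgre1 (chr17:57358691-57483527, plus), share a chromosome. Csf1r lies at chr18:61100598-61132149 on the plus strand.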

How the data were processed

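RNA of 12 tumors was measured after removal of ribosomal RNA with a stranded library kit. Per the labels and the study's methods, the authors aligned reads to mm10 with STAR, kept unique reads and counted RefSeq genes with HTSeq, and the deposited values are RPKM, 1 per gene and tumor. The transcript length and each tumor's mapped total behind RPKM are not given in the sources used here. The study's methods give only ranges for the reads per sample and for the share mapped uniquely. The fragment totals worked out here were not set against those ranges. Bcl2fastq 2.17, edgeR and limma appear in the submitters' processing notes without a role. A further 27 rows of the files bear dates instead of symbols and are not named.

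Groups are the labelled locations. Tests used limma 3.58.1 in R 4.3.3 on log2(RPKM + 1) with the trend and robust options, over genes that reached 1 RPKM in 3 or more fitted tumors, with Benjamini-Hochberg adjustment at 0.05 over all genes tested. Changes on this scale are understated for low genes. Where replicate tumors may share an animal, p-values measure only the spread between these samples. Fragment numbers were recovered for 15040 of 15043 filtered genes (tolerance 0.02 of a fragment) at the smallest fitting length. The closest tumors, Cheek 2 and 3, differed by a chi-square of 24.8 per degree of freedom over 14026 genes and were kept as separate samples. The scripts were tested on simulated data. Ratios and correlations are descriptions (Python 3.11.15, pandas 2.3.3, numpy 2.4.6). Promoters are from RefSeq, which gave 6 of the 9 members.

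The members and lists were chosen with earlier results of these data known. Genes named beyond the members are the 10 most correlated with Csf1r and with P2ry12, up to 4 genes per list (those past the threshold, then those with the highest mean) and Ptprc, and any further gene is marked as picked later. Of the wider lists, 2 genes are not reported here, and the lists' counts, sums and medians leave them out. Alternatives were another pseudocount, no filter, quantile normalization, the TPM scale, no trend or robust fit, a block on the identifier part, each tumor left out and, chosen after seeing the data, limma voom on recovered fragments.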

Additional observations from a re-analysis of the deposited data

Results flagged for a closer look

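For each member, tumors that stand apart within a group were sought in the 4 Retro-orbital tumors, in the 5 Meninges, Vestibular N and Trigeminal N tumors and in the 7 Retro-orbital and Cheek tumors. Of the 27 groups, 7 held such a tumor by Dixon's 95% limit, taken on RPKM and not on a log scale. That limit flags 1 in 20 groups only where values are normally spread and groups are independent. RPKM was skewed here, and the 4 Retro-orbital tumors are also among the 7. The count therefore cannot be set against that rate. The values below give the gap to the nearest tumor divided by the whole range of the group.

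Retro-orbital tumor 2 stood apart in 4 of the 7. For P2ry12, at 29.4 RPKM against 8.88 in the next Retro-orbital tumor, the gap took 0.871 of the range of the 4 Retro-orbital tumors. Against 11.7 RPKM in the next of the 7 tumors, the gap took 0.712 of their range. For Cd163, at 172 RPKM against 61.4, it took 0.645 of the range of the 7, and for Cd68, at 244 against 137, 0.580.

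Meninges tumor 2 stood apart from the other 4 of its group for Emr1, at 54.7 RPKM against 21.3 (0.780 of the range), and for Mrc1, at 66.8 against 27.6 (0.783). Retro-orbital tumor 4 stood apart from the other Retro-orbital and Cheek tumors for Aif1, at 48.9 RPKM against 22.7 (0.655). No cause was tested.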

How the results depend on the processing

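Over the alternatives, no member passed 0.05 in 171 fits of the comparison of 5 with 7 tumors, and 1 of 153 fits over the 3 locations called a member, Trem2 under the identifier block. The block rests on a consensus correlation of 0.93 over the 3 locations and 0.67 in the other comparison, from few tumors. The direction was kept for Cd163, Mrc1, Cd68, Tmem119 and Aif1 in every fit. Under the block the differences of Csf1r and Emr1 became 0.16 and 0.16. Leaving out each tumor moved Csf1r between -0.35 and 0.19, Emr1 between -0.38 and 0.15, P2ry12 between -0.073 and 0.37 and Trem2 between -0.018 and 0.41, changing their sign. Over the settings that keep all tumors, the limma adjusted p of Cd163 ranged from 0.11 to 0.46 in the comparison of 5 with 7 tumors. It ranged from 0.095 to 0.69 over the 3 locations.

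The counts over all genes moved more. Over the 3 locations, the 6 genes became 10 with no filter, 12 on the TPM scale, 19 with no trend or robust fit, 2802 under the block and 1 with voom, which was chosen after seeing the data. Between the 5 and 7 tumors, the 29 genes became 16 with a pseudocount of 0.1, 64 with no filter, 58 on the TPM scale, 45 with no trend or robust fit, 112 under the block and 10 with voom. Higher calls were 20 of 29, but 9 of 16 with a pseudocount of 0.1, 53 of 64 with no filter and 46 of 58 on the TPM scale, and they ranged from 2 of 5 without Retro-orbital 1, Cheek 2 or Cheek 3 to 149 of 187 without Retro-orbital 3. Quantile normalization moved the median difference of all genes from 0.13 to 0.02. Leaving out each tumor gave 0 to 198 genes over the locations (198 without Cheek tumor 1, 56 without Retro-orbital 3, 14 without Retro-orbital 1, 3 without Meninges 3, and 0 without Cheek 2, Cheek 3 or Meninges 1) and 5 to 187 in the other comparison (187 without Retro-orbital 3, 5 to 9 without Retro-orbital 1, Cheek 2, Cheek 3, Meninges 1, Meninges 3 or the Trigeminal N tumor). The causes were not tested. The labels hold no replicate numbers, so the shared identifier part, fitted as the block above, was the only pairing tried.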
